A study of Mus musculus with 17 samples.

Results

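The genes described here encode the enzymes that trim fibrillar procollagen and the proteins that help them. The 7 genes Bmp1, Tll1, Pcolce, Pcolce2, Adamts2, Adamts3 and Adamts14 were taken by symbol from the 55421 gene rows of the count table, and each matched 1 row. Total RNA-Seq was performed on cells grown from the lungs of 17 mice, 1 library per mouse. Every mouse, control or not, carried 2 floxed Ephb4 alleles and the Col1a2-CreERT2 transgene, in which the Col1a2 promoter drives a tamoxifen-dependent Cre recombinase. Ephb4 CKO mice received 4-hydroxytamoxifen at 1 mg/day for 5 days from 4 weeks of age, and Ephb4 control mice received corn oil, so the drug and the deletion cannot be told apart. At 6 weeks of age mice were given bleomycin at 1.2 U/kg, which injures the lung, or PBS, and cells were taken 14 days later and passaged once. The groups were Ephb4 control with PBS (n = 4), Ephb4 control with bleomycin (n = 4), Ephb4 CKO with PBS (n = 5) and Ephb4 CKO with bleomycin (n = 4). By label, 3, 2, 2 and 2 of the mice in these groups, in that order, were female and the rest male.

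Fibrillar collagens are secreted as procollagens with a propeptide at each end, and trimming of the propeptides is part of fibril assembly. Bmp1 and Tll1 are tolloid metalloproteinases that remove the C-terminal propeptide and also cut other matrix proteins and growth factor regulators. Pcolce and Pcolce2 have no protease activity of their own and bind the C-propeptide region to speed its removal. Adamts2, Adamts3 and Adamts14 are the procollagen N-proteinases, which remove the N-terminal propeptide. Fibroblasts and myofibroblasts are the main source of fibrillar collagen in injured lung.

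On GRCm38 the genes lie on 6 chromosomes. Bmp1 (ENSMUSG00000022098) lies at chr14:70474558-70520234 on the minus strand, and Tll1 (ENSMUSG00000053626) at chr8:64014931-64206271 on the minus strand. Pcolce (ENSMUSG00000029718) lies at chr5:137605103-137613784 on the minus strand, 226433 bp from Ephb4. It overlaps Fbxo24 on its own strand, to which 0 to 92 counts per library were assigned, and the split of reads between the 2 genes is uncertain. Pcolce2 (ENSMUSG00000015354) lies at chr9:95637601-95698096 and Adamts2 (ENSMUSG00000036545) at chr11:50602084-50807573, both on the plus strand. Adamts3 (ENSMUSG00000043635) lies at chr5:89677087-89883334 and Adamts14 (ENSMUSG00000059901) at chr10:61197112-61273438, both on the minus strand.

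RefSeq promoter windows (GRCm38.p6, 250 bases before to 50 after the start) were matched for 6 of the 7 genes. They were searched on both strands for the TEAD motif GGAATG, the SMAD-binding element CAGAC, the AP-1 motif TGANTCA, the TATA box TATAAA and the GC box GGGCGG. The Tll1 window held a TEAD match 238 bases and a SMAD match 179 bases upstream of the start and no GC box. The other 5 windows held 1 to 7 GC boxes each, and a SMAD match was also present in Adamts3 and Adamts14. No window held an AP-1 or TATA match. Among 32817 RefSeq promoters, 14.7% held the TEAD letters, 49.6% the SMAD letters, 35.6% a GC box, 13.6% the TATA letters and 7.81% the AP-1 letters. The longest stretch of each window outside annotated exons is given for Tll1 and Pcolce, whose control groups were apart, and for Pcolce2 and Adamts2, the paralog and N-proteinase set beside them, written 5′ to 3′ with motif matches in capitals.
Tll1 (chr8:64206009-64206106, minus strand): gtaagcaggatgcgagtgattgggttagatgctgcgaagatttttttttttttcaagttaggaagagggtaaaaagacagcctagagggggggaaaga
Pcolce (chr5:137611488-137611654, minus strand): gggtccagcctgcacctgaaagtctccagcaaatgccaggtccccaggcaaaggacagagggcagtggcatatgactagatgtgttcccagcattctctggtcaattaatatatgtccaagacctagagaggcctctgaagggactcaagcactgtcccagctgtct
Pcolce2 (chr9:95637378-95637600, plus strand): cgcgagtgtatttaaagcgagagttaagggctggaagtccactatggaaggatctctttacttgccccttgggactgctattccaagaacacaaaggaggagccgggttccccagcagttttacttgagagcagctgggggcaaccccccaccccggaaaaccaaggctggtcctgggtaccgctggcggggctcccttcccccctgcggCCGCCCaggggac
Adamts2 (chr11:50601835-50602083, plus strand): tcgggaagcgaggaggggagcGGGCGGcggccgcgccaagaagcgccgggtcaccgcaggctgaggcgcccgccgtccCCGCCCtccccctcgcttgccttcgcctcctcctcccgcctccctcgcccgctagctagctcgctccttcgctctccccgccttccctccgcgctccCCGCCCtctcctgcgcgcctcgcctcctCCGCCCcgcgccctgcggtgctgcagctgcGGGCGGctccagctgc
The stretches of Tll1 and Pcolce held no capitals. The Tll1 matches and the Pcolce GC box lie in the part of the window that GENCODE annotates as exon. A match is a run of letters and is not a binding site.

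The libraries differed in cell type markers, which is given first because it touches every level that follows. Total counts ranged from 66540022 to 120554468 with a median of 93075927. The summed level of the fibroblast marker list was 6040 to 11700 CPM (a gene's counts scaled to a common library size) in the Ephb4 control bleomycin libraries, 13.0 to 7210 CPM in Ephb4 control PBS, 39.1 to 1910 CPM in Ephb4 CKO PBS and 15.6 to 1860 CPM in Ephb4 CKO bleomycin. The macrophage list summed to 1310 to 20600 CPM in Ephb4 control bleomycin and to 23400 to 43200 CPM in Ephb4 CKO bleomycin. The fibroblast markers Tcf21, Dpt, Twist2 and Fbln1 were at 0 in at least 1 library each and 11 of the 15 markers passed the filter on low counts, against 19 of 19 for macrophages. The labels call these cells primary fibroblasts, and in libraries such as Ephb4 control PBS mouse 4 fibroblast markers were close to absent. In bulk RNA, fewer fibroblasts and less RNA per fibroblast cannot be told apart. Ephb4 itself was 38.5 ± 21.3 CPM (SD) in Ephb4 control bleomycin and 9.64 ± 3.70 CPM in Ephb4 CKO bleomycin, with the ranges overlapping between 13.2 and 14.0 CPM, and after PBS the means were 16.0 and 9.66 CPM with overlapping ranges. The X- and Y-linked genes went against the labelled sex in 3 libraries, which were mouse 2 of the Ephb4 control bleomycin group together with mice 1 and 2 of the bleomycin-treated Ephb4 CKO group. For both bleomycin comparisons the fold changes of the members that passed the filter are also given without them. The overlap counts, exact tests and lists of other genes are given only with them.

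The levels were first compared per length of exon. Counts were divided by the union of each gene's exons and are given as CPM per kb. In both PBS groups Bmp1 was the highest member, at 7.80 ± 8.77 CPM per kb in Ephb4 control (SD, n = 4) and 4.73 ± 4.86 CPM per kb in Ephb4 CKO (SD, n = 5), and it was above Pcolce in all 9 PBS libraries. In Ephb4 control bleomycin Pcolce was first at 30.6 ± 4.72 CPM per kb and exceeded Bmp1 in 3 of 4 libraries. Pcolce also had the highest mean in Ephb4 CKO bleomycin, 7.30 ± 10.9 CPM per kb against 3.57 ± 2.35 CPM per kb for Bmp1, but only 2 of 4 libraries had this order. By mean, Adamts2 followed Bmp1 and Pcolce, and Adamts3 was last, in every group. Pcolce was above Adamts2 in 2 of 4 Ephb4 control PBS libraries and 3 of 5 Ephb4 CKO PBS libraries, and the Ephb4 control PBS median was 0.973 CPM per kb for Pcolce and 1.25 CPM per kb for Adamts2. Bmp1 was above Adamts2 in 12 of 17 libraries and in 2 of 4 of the Ephb4 CKO bleomycin group. Adamts2 made up 71.4% ± 31.2 (SD, n = 5) of the summed CPM per kb of the N-proteinases in Ephb4 CKO PBS and a mean of 87.3% to 92.0% in the other groups. Its share in Ephb4 CKO PBS mouse 1 was 17.96%, where Adamts14 was 5.42 CPM and Adamts2 2.13 CPM. The neighbours Tll1, Pcolce2 and Adamts14 changed places between groups and libraries, and their order did not hold beyond their spread.

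**Figure D1:**
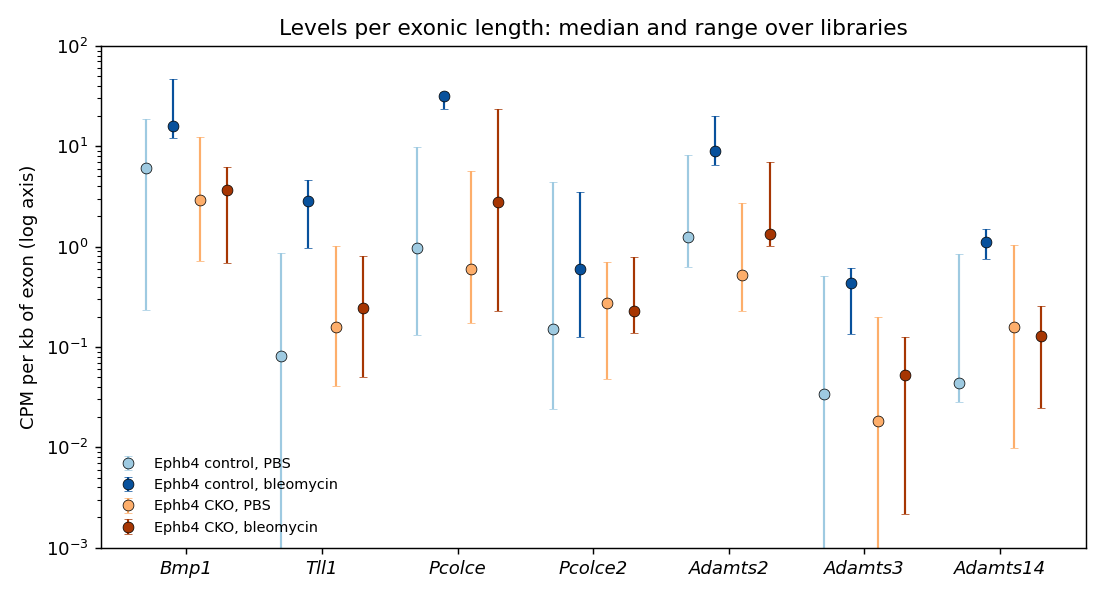
Levels of the 7 genes in CPM per kb of exon on a log axis, as the median (point) and range (line) over the libraries of each group. The Ephb4 control bleomycin medians are the highest of the 4 groups for each gene, and a line that runs to the foot of the axis has a library at 0 counts.

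Bmp1, the tolloid C-proteinase first purified as a bone morphogenetic protein, had a higher group mean per kb than Tll1 and the N-proteinases. In Ephb4 control PBS it was 95.6, 11.5, 167 and 2.08 CPM in mice 1 to 4. In Ephb4 control bleomycin it was 414, 160, 108 and 122 CPM. In Ephb4 CKO PBS it was 25.7, 109, 59.1, 9.19 and 6.39 CPM, and in Ephb4 CKO bleomycin 26.7, 55.6, 38.3 and 6.05 CPM. The PBS libraries of Ephb4 control mice spanned an 80.4-fold range, and all 4 Ephb4 CKO bleomycin libraries were below all 4 Ephb4 control bleomycin libraries.

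Tll1, the second tolloid enzyme, was low after PBS. The Ephb4 control PBS libraries held 6.71, 0, 0.911 and 0.351 CPM. The 0 was 0 counts, which allows up to 0.0337 CPM. In Ephb4 control bleomycin Tll1 was 10.98, 7.53, 35.9 and 33.7 CPM, each above every Ephb4 control PBS library. In Ephb4 CKO PBS it was 5.62, 7.95, 0.318, 1.24 and 0.508 CPM. In Ephb4 CKO bleomycin it was 2.79, 6.27, 0.393 and 0.975 CPM, each below every Ephb4 control bleomycin library.

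Pcolce had the higher mean of the enhancers in every group. It was 6.23, 1.22, 37.5 and 0.501 CPM in Ephb4 control PBS. It was 123, 132, 90.7 and 122 CPM in Ephb4 control bleomycin, the narrowest group of any member. Ephb4 CKO PBS held 0.670, 5.49, 21.7, 1.03 and 2.29 CPM. Ephb4 CKO bleomycin held 17.0, 89.5, 4.17 and 0.881 CPM, with mouse 2 just below the lowest Ephb4 control bleomycin library and the other three far below it. Pcolce2, the second enhancer, was 0.884, 0.113, 20.3 and 0.521 CPM in Ephb4 control PBS and 16.2, 4.47, 1.11 and 0.576 CPM in Ephb4 control bleomycin. It was 1.28, 0.221, 3.27, 1.41 and 1.15 CPM in Ephb4 CKO PBS and 1.27, 3.69, 0.836 and 0.634 CPM in Ephb4 CKO bleomycin. In each control group 1 library (20.3 and 16.2 CPM) was well above the rest, and all 4 groups overlapped.

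Adamts2, which trims procollagen I and III among others, was 5.85, 14.8, 75.9 and 8.60 CPM in Ephb4 control PBS. It was 99.8, 187, 61.2 and 69.1 CPM in Ephb4 control bleomycin. It was 2.13, 4.65, 25.2, 6.63 and 4.82 CPM in Ephb4 CKO PBS and 11.6, 64.7, 13.5 and 9.54 CPM in Ephb4 CKO bleomycin. Ephb4 CKO bleomycin mouse 2 lay between the lowest 2 values of the Ephb4 control bleomycin group, so these groups overlapped by that library. Adamts3 was 0 to 2.80 CPM in Ephb4 control PBS, 0.730 to 3.35 in Ephb4 control bleomycin, 0 to 1.07 in Ephb4 CKO PBS and 0.0117 to 0.675 in Ephb4 CKO bleomycin. Adamts14 was 0.146 to 4.41 CPM, 3.89 to 7.78 CPM, 0.0509 to 5.42 CPM and 0.129 to 1.34 CPM in the same order. For both genes all Ephb4 CKO bleomycin libraries were below all Ephb4 control bleomycin libraries.

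**Figure D2:**
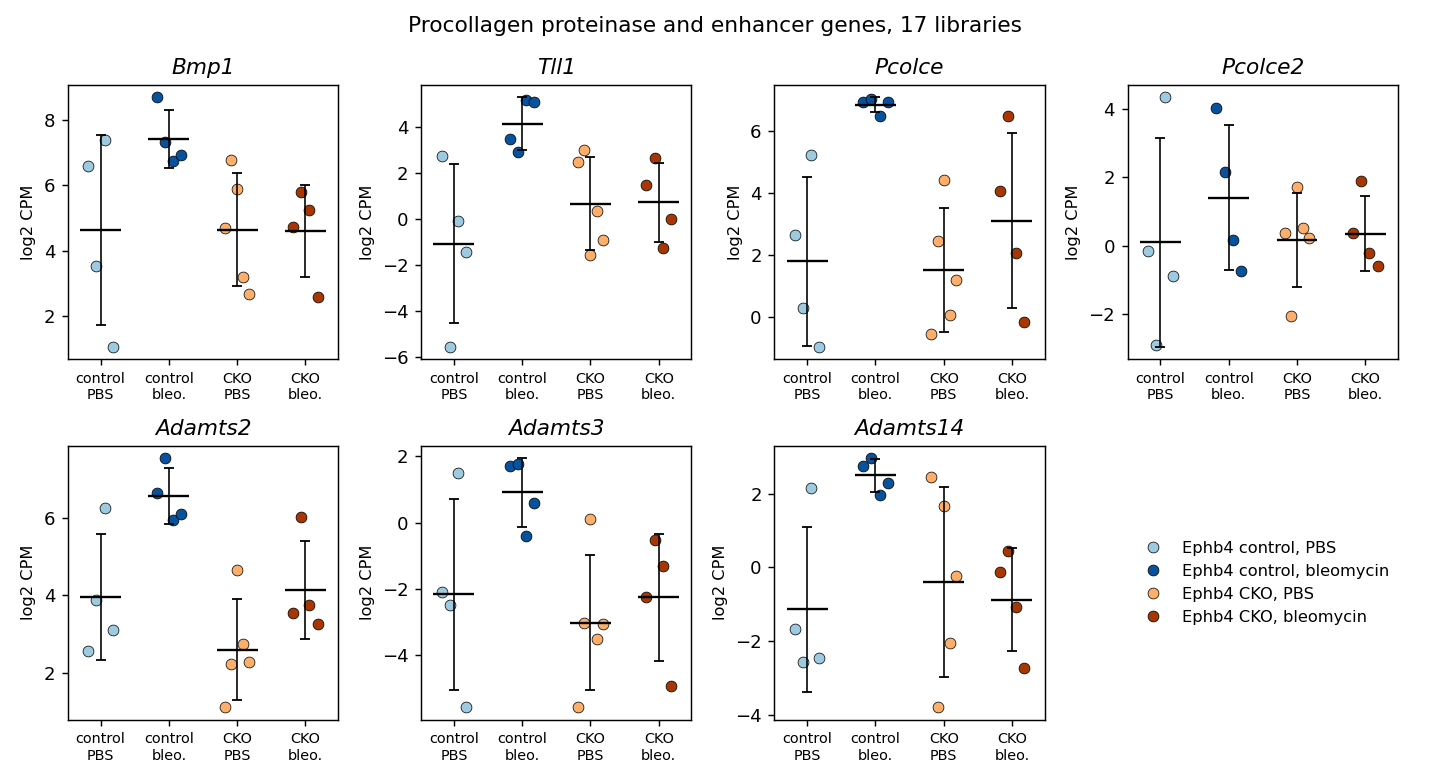
Log2 CPM of each gene by group; points are libraries, the bar is the mean and the whiskers 1 SD. The 4 Ephb4 control bleomycin points sit above every Ephb4 CKO bleomycin point for Bmp1, Tll1, Pcolce, Adamts3 and Adamts14, and the PBS groups spread widely.

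The effect of bleomycin was tested in Ephb4 control mice. By edgeR's quasi-likelihood test over 10481 genes, 0 members passed an adjusted p of 0.05, as did 0 of all genes (0%), while 1494 genes had an unadjusted p under 0.05. DESeq2 without a covariate gave Pcolce no adjusted p and called 0 of the others and 166 of 10392 genes (1.60%). The log2 fold change was 3.47 (SE 1.49, adjusted p = 0.332) for Tll1 and 3.36 (SE 1.49, adjusted p = 0.336) for Pcolce. It was 1.99 (SE 0.93, adjusted p = 0.349) for Adamts2, 1.54 (SE 1.10, adjusted p = 0.508) for Bmp1 and 0.04 (95% interval -2.82 to 2.89) for Pcolce2. Tll1 exceeded the filter's 10 CPM in Ephb4 control bleomycin libraries alone, so passing the filter depended on the group in which it was high, and counts and medians are given over all 7 genes with no filter. That median was 2.06, against 0 over the 35414 genes with a count. Groups did not overlap for 2 of 7, Tll1 and Pcolce, beside 3.12% of the genes with a count and 5.72% of the filtered genes that were higher without overlap. A 2-sided exact permutation test gave p = 0.0286 for each, the smallest that 4 against 4 allows. For Adamts2 the same exact test gave p = 0.0857, for Bmp1 0.143, for Pcolce2 0.514, for Adamts3 0.0857 and for Adamts14 0.0571. In all, 28 such tests were run over the 7 genes and 4 comparisons.

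The second comparison was Ephb4 CKO with Ephb4 control after bleomycin. All 7 members had a negative log2 fold change with no filter, with a median of -2.71 against 0 over the 35414 genes with a count. In the filtered fit all 5 that passed were negative, beside 49.3% of the filtered genes. By edgeR 0 of the 5 that passed the filter had an adjusted p under 0.05, as did 0 of all genes (0%), with 2119 at an unadjusted p under 0.05. DESeq2 without a covariate called 0 of those it could adjust and 3.84% of 10392 genes. The log2 fold change was -3.08 (SE 1.46, adjusted p = 0.248) for Tll1 and -2.66 (SE 1.15, adjusted p = 0.228) for Bmp1. For Pcolce it was -2.07 (SE 1.41, adjusted p = 0.384), for Adamts2 -2.07 (SE 0.93, adjusted p = 0.236) and for Pcolce2 -1.80 (SE 1.38, adjusted p = 0.437). Groups did not overlap for 5 of 7, beside 6.26% of the genes with a count and 12.2% of the filtered genes that were lower without overlap. Nothing is read from these counts for Tll1 or Pcolce2, which needed libraries of the higher group to pass the filter. Bmp1, Tll1 and Pcolce each gave an exact permutation p of 0.0286, the smallest possible. Adamts3 and Adamts14, tested outside the filter, also gave an exact p of 0.0286, Adamts2 0.0571 and Pcolce2 0.457. In the model with no filter on low counts edgeR gave Adamts3 a log2 fold change of -2.85 (adjusted p = 0.487) and Adamts14 -3.08 (adjusted p = 0.453).

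The remaining comparisons were of genotypes after PBS, of treatments in Ephb4 CKO mice, and the interaction. Ephb4 CKO against Ephb4 control after PBS gave log2 fold changes from -1.89 (Pcolce2) to 0.65 (Tll1), edgeR adjusted p = 1.00 for each, with all groups overlapping, beside 0.219% of all genes lower and 0.0286% higher without overlap. Bleomycin against PBS in Ephb4 CKO mice gave 2.16 for Pcolce (95% interval -0.64 to 4.96) and 1.52 for Adamts2 (-0.30 to 3.33), also at adjusted p = 1.00 by edgeR and with all groups overlapping, beside 0.0763% of genes higher and 0.00954% lower without overlap. The interaction of genotype and bleomycin was -3.73 for Tll1 (95% interval -7.87 to 0.41, edgeR adjusted p = 0.916) and -0.47 for Adamts2 (95% interval -3.10 to 2.16). None of the 5 genes passed the test in these comparisons, in which edgeR called 0 of all genes, with 209, 101 and 363 genes at an unadjusted p under 0.05. DESeq2 called 1 gene (0.00962%) in each of the comparisons within one factor and 0 in the interaction (0%). The interaction was -1.94 for Bmp1, -1.2 for Pcolce and 0.09 for Pcolce2. In the model with no filter it was -1.29 for Adamts3 and -3.74 for Adamts14. The 95% interval for Adamts14 was -7.39 to -0.08, with an unadjusted p of 0.0458 by edgeR that did not pass after adjustment. A difference between genotypes in the response to bleomycin did not pass the test for any member.

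The fold changes moved with the fibroblast score of the library, the mean log2 CPM of 7 markers without collagens and Dcn. The score was 6.77 ± 0.23 in Ephb4 control bleomycin and 1.93 ± 3.20, 2.02 ± 1.69 and 2.83 ± 3.05 in Ephb4 control PBS, Ephb4 CKO PBS and Ephb4 CKO bleomycin. With that score as a covariate, the Ephb4 CKO against Ephb4 control difference after bleomycin was -0.98 for Bmp1, -0.37 for Pcolce, -0.85 for Adamts2, 0.36 for Pcolce2 and -2.41 for Tll1. The bleomycin difference in Ephb4 control mice was 0.09 for Bmp1, 1.02 for Pcolce and 0.58 for Adamts2 in that fit. For Tll1 the SE of the first was 1.71, and the second was 2.43 (SE 1.80). With the score of the macrophage list as the covariate instead, the difference between genotypes after bleomycin was -1.08 for Bmp1, -1.32 for Pcolce, -1.73 for Adamts2, 0.14 for Pcolce2 and -2.53 for Tll1. The part of fibroblast and macrophage content in the fold changes was not tested. With labelled sex as the covariate, the difference between genotypes after bleomycin was -2.79 for Bmp1, -2.18 for Tll1 and -2.13 for Pcolce. It was -2.13 for Adamts2 and -1.24 for Pcolce2. Without the 3 libraries that mismatched in sex, the difference after bleomycin was -5.33 for Tll1 (SE 2.3) and -5.51 for Pcolce (SE 2.12). It was -3.32 for Bmp1 (SE 1.77), -2.78 for Adamts2 (SE 1.22) and -3.06 for Pcolce2 (SE 2.12). The adjusted p by edgeR ran from 0.302 to 0.440. That fit left Ephb4 CKO bleomycin mice 3 and 4, whose library titles carry numbers in series 11. It set them against Ephb4 control bleomycin mice 1, 3 and 4, in series 12. Genotype and series cannot be told apart in it. In the same fit the bleomycin difference in Ephb4 control mice was 3.77 for Tll1, 3.30 for Pcolce, 1.64 for Bmp1, 1.55 for Adamts2 and 0.13 for Pcolce2.

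**Figure D3:**
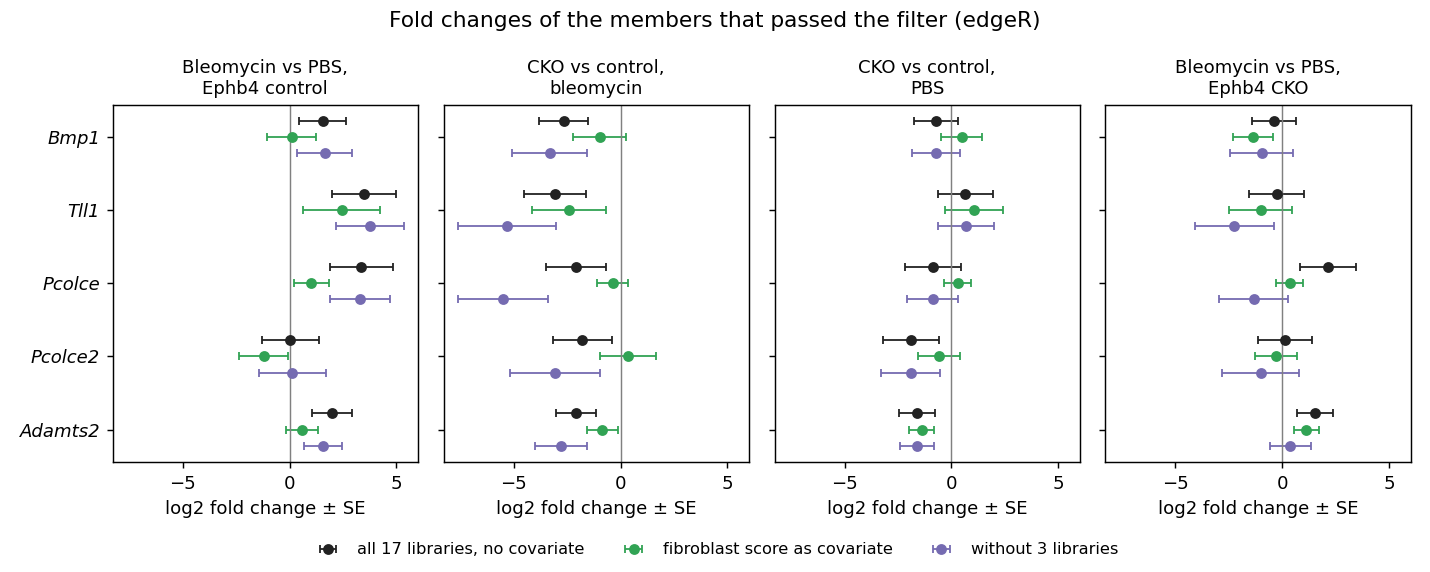
Log2 fold changes with SE from edgeR for the 5 genes that passed the filter, from all 17 libraries, with the fibroblast score as a covariate, and after leaving out the 3 libraries that mismatched in sex. With the score as covariate the Ephb4 CKO difference after bleomycin for Pcolce goes from -2.07 to -0.37, and that for Tll1 from -3.08 to -2.41.

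**Figure D4:**
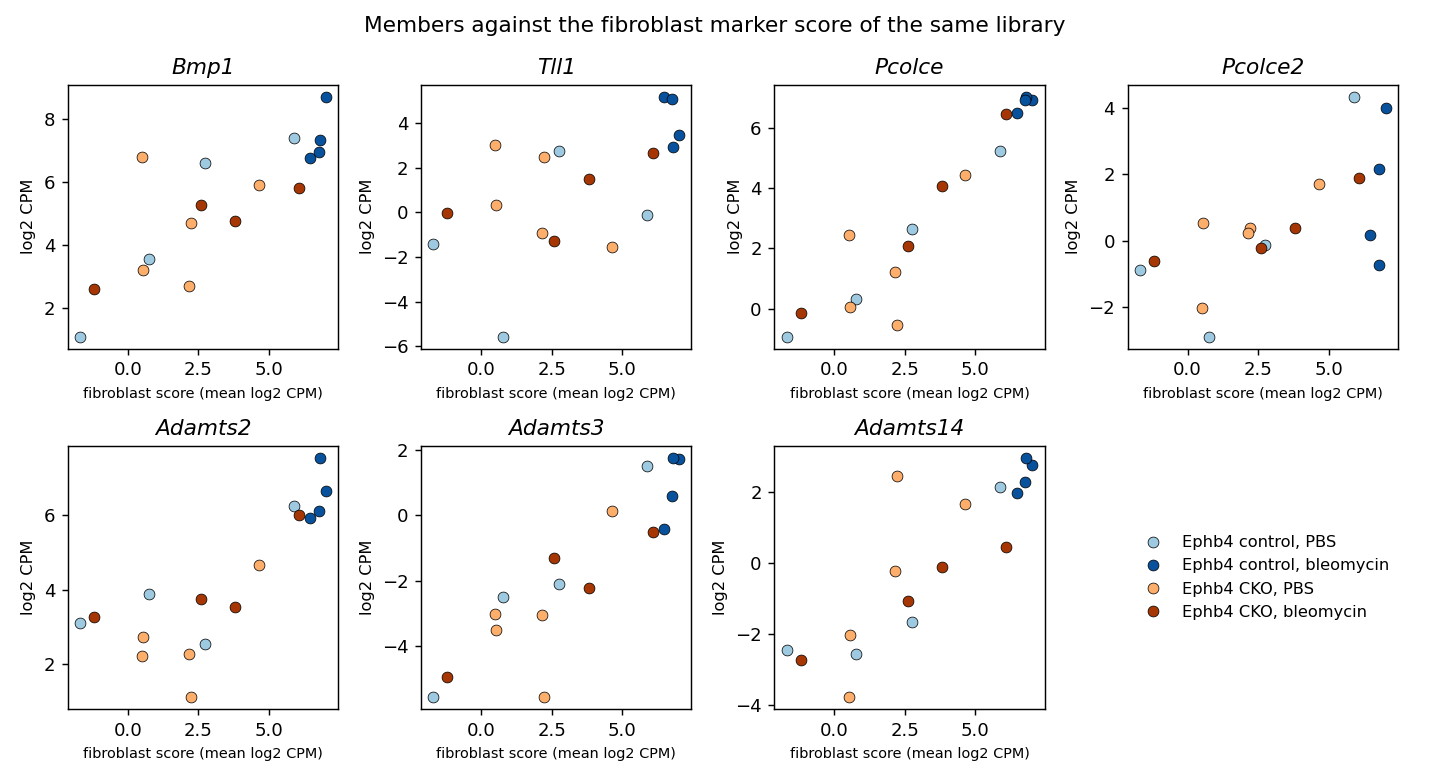
Log2 CPM of each gene against the fibroblast score of the same library, 1 point per library, coloured by group. Pcolce follows the score across the 17 libraries, while Tll1 varies widely at similar scores.

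The deposited columns stand in 2 sorted runs of 8 and 9 libraries, the numbers of libraries that the labels give for the 2 sequencing pools; which pool a library was in is not given in the sources used here. Within the 2 runs, after bleomycin, Tll1 was lower in Ephb4 CKO by a log2 difference of -4.63 and -2.24 (2 mice per group, no test), Bmp1 by -3.20 and -2.45, and Pcolce by -6.03 and -1.43. With the run as a covariate, DESeq2 called Tll1 in both bleomycin comparisons, at 4.50 (adjusted p = 0.00835) between bleomycin and PBS in Ephb4 control mice and -4.04 (adjusted p = 0.0190) between genotypes, while edgeR with the same covariate called 0 members. Tll1 passed the filter only through Ephb4 control bleomycin libraries, the higher group in both, so nothing is read from these calls. How many of all genes DESeq2 called in these fits is given with the alternatives at the end. With the series of title numbers as the covariate, edgeR gave Tll1 2.19 (adjusted p = 0.757) and -1.97 in these comparisons. Bmp1 was 0.76 (adjusted p = 0.873) in the first. The title numbers form 2 series, and all 4 Ephb4 control bleomycin mice belong to the higher. In it, with no test, the genotype difference (2 against 4 mice) was -2.08 for Tll1, -2.15 for Bmp1 and -1.57 for Pcolce, and bleomycin against PBS in Ephb4 control (4 against 1 mouse) was 1.40 for Tll1, 0.84 for Bmp1 and 4.21 for Pcolce. The other series held no Ephb4 control bleomycin mouse.

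The genes of the procollagens that these enzymes cut were set beside them in Ephb4 CKO against Ephb4 control after bleomycin. Of the 11 fibrillar procollagen genes in the list, 8 passed the filter, and all 8 were lower without overlap between groups, beside 12.2% of the filtered genes. Their log2 fold changes ran from -5.54 (Col11a1) to -2.78 (Col27a1), with a median of -4.04 against 0.01 over the filtered genes. DESeq2 called 2 of them lower, beside 2.44% of all genes, and edgeR called 0. Col3a1 was -5.38 (edgeR adjusted p = 0.257), Col1a2 -4.23 (0.270), Col5a2 -3.52 (0.252) and Col1a1 -4.70 (0.228). In the 14 other tolloid substrates, 10 passed the filter, of which Ogn and Gdf11 needed the Ephb4 control bleomycin libraries to do so. The log2 fold changes of the 10 ran from -4.41 to 0.63. Of the 10, 6 were lower without overlap between groups, Gdf11 among them, beside 12.2% of the filtered genes. Lox, a collagen crosslinking enzyme, was -2.90 (adjusted p = 0.206 by edgeR and 0.0254 by DESeq2), Bgn, a small proteoglycan, -2.22 and Dcn -2.38. Of these 10 genes DESeq2 called 1 lower, Lox, beside 2.44% of all genes. Of the 13 regulators and other procollagen proteinases, all 7 that passed were lower, beside 49.3% of the filtered genes. Their log2 fold changes ran from -4.83 to -0.08 with a median of -1.72. Of them, 3 were lower without overlap between groups, beside 12.2% of the filtered genes. The 7 included Thbs1 -1.31, Fn1 -2.07, Furin, a proprotein convertase, -0.68 and Postn, periostin, -4.83. The macrophage list moved the other way, with 19 of 19 genes at a higher mean in Ephb4 CKO after bleomycin, beside 50.7% of all genes.

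After the group means were taken off, the members were compared with every gene kept over the 17 libraries, as a description with no test. Bmp1 was most like Zfp618 (Pearson r = 0.987), Yap1 (0.984) and Mex3a (0.979). Tll1 was most like Itgb1 (0.925), Pdlim5 (0.922) and Sptan1 (0.910), and its r to Bmp1 was 0.42. Pcolce was most like Loxl1 (0.976), Col16a1 (0.975) and Tgfb3 (0.965). Pcolce2 was most like Tspan18 (0.910), Enpp2 (0.909) and Samd1 (0.889), and Adamts2 was most like Pdgfra (0.909), Gpx3 (0.906) and Islr (0.894). The fibroblast marker genes had a median r of 0.84 to Pcolce and 0.17 to Tll1. These values share library composition, so they describe the same libraries and not independent samples.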

How the data were processed

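Total RNA libraries of lung cells from 17 mice were sequenced by the authors for 75 paired-end cycles. Per the labels and the study's methods, reads were trimmed with cutadapt (version 1.18 in the submitters' processing notes), aligned to GRCm38 with HISAT2 2.1.0 in strand-specific mode and assigned with StringTie, and the deposited values are raw counts per gene made by its own script from coverage. Counts were used as deposited. A gene was kept if its CPM exceeded 10 in 2 or more libraries (10481 of 55421). Of the 7 members, 5 passed. Tll1 passed only through Ephb4 control bleomycin libraries, Pcolce2 only through Ephb4 control PBS mouse 3 and Ephb4 control bleomycin mouse 1, and Adamts3 and Adamts14 did not pass. CPM used TMM library sizes. R 4.3.3 and edgeR 4.0.16 were used for a quasi-likelihood fit of the 17 libraries by group, without a covariate, with Benjamini-Hochberg adjustment over all genes kept at 0.05. The study's batch covariate is not named per library in the sources used here. DESeq2 1.42.0 was an alternative. Each member's log2 CPM (prior count of 2) was also compared between groups by an exact 2-sided permutation test. Each library came from 1 labelled mouse, and no 2 columns were identical. Positions come from GENCODE on the same build and promoters from RefSeq. Gene lists were written from general knowledge; a floor of 3 counts covers counting error only. The members and lists were chosen with earlier results of these data known, and the within-run and within-series differences were chosen after seeing the data. Genes named from the lists are the 4 with the highest mean CPM in each list. The result of 1 gene that this rule covers is not reported here. The scripts were tested on simulated data.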

Additional observations from a re-analysis of the deposited data

Results flagged for a closer look

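In 11 of 28 sets of CPM values (7 genes in 4 groups), the highest library lay farther from the next than a 95% critical value for the gap allows. Chance would flag about 1 in 20 such sets only if the values were normal and independent. These were CPM without a log, from libraries shared between genes, so the count is not set against that rate. Ephb4 control PBS mouse 3 held 5 of the values, with Pcolce 37.5 CPM, Pcolce2 20.3, Adamts2 75.9, Adamts3 2.80 and Adamts14 4.41 CPM. It also had the highest fibroblast score of its group, 5.88. Ephb4 CKO PBS mouse 3 held 3, with Pcolce 21.7 CPM, Adamts2 25.2 and Adamts3 1.07 CPM, and its fibroblast score of 4.65 was likewise the highest of its group. In Ephb4 CKO bleomycin mouse 2 Adamts2 was 64.7 CPM, with a score of 6.09. In Ephb4 control bleomycin mouse 1 Bmp1 was 414 CPM. In Ephb4 control PBS mouse 1 Tll1 was 6.71 CPM. The part of fibroblast content in these values was not tested.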

How the results depend on the processing

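No paired analysis was possible because the labels give animal numbers and no replicate numbers, and no groups that were compared share an animal number. A pair of these numbers recur with the other sex letter, each in groups that differ in both genotype and treatment. Those mice include some of the 3 libraries that mismatched in sex. By edgeR, 0 members were called under every alternative and with any 1 library left out. With the run of columns as a covariate, DESeq2 called 1 member, Tll1, in bleomycin against PBS in Ephb4 control mice and 1, Tll1, in Ephb4 CKO against Ephb4 control after bleomycin. In these fits it called 231 and 387 of the 10481 filtered genes. Tll1 passed the filter only through the higher group of both comparisons. The direction of most member fold changes held. For Pcolce2 the sign turned with the fibroblast score as covariate to -1.21 (bleomycin against PBS, Ephb4 control), 0.36 (Ephb4 CKO against control, bleomycin) and -0.28 (bleomycin against PBS, Ephb4 CKO), with the macrophage score to -0.73, 0.14 and -0.01, with sex to -0.36 (bleomycin against PBS, Ephb4 CKO) and -0.50 (interaction), with the run of columns to -0.01 (interaction), with the number series to -0.14 (interaction), and without the 3 libraries to -1.02 (bleomycin against PBS, Ephb4 CKO) and -1.15 (interaction). For Tll1 in bleomycin against PBS in Ephb4 CKO it turned to 0.10 and 0.09 with the run of columns by DESeq2 and edgeR, to 0.92 with sex and to 0.03 with the macrophage score. With the fibroblast score Bmp1 and Pcolce in Ephb4 CKO against control after PBS were 0.48 and 0.29, and the Adamts2 interaction was 0.55. Bmp1 in bleomycin against PBS in Ephb4 CKO was 0.05 with the macrophage score, and Pcolce there was -1.34 without the 3 libraries. The cause was not tested. With the longest transcript as gene length 5 of 7 ranks held in Ephb4 CKO bleomycin and 7 of 7 in the other groups. With total counts as library sizes the mean of Pcolce in Ephb4 control bleomycin was 137 CPM.

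Leaving out each library in turn left every fold change of Ephb4 CKO against control after bleomycin negative: Bmp1 -3.08 to -2.05, Tll1 -3.99 to -2.72, Pcolce -3.99 (without Ephb4 CKO bleomycin mouse 2) to -1.66, Pcolce2 -2.61 to -0.37 (without Ephb4 control bleomycin mouse 1) and Adamts2 -3.17 to -1.63. In bleomycin against PBS in Ephb4 control, Bmp1 was 0.94 to 2.5, Tll1 3.08 to 5.70, Pcolce 2.96 to 5.50, Adamts2 1.55 to 3.46 and Pcolce2 -1.37 to 3.50, the upper ends all without Ephb4 control PBS mouse 3 except that of Tll1, without mouse 1. In Ephb4 CKO against control after PBS, Bmp1 was -1.46 to 0.23, Tll1 -0.05 to 2.89, Pcolce -2.29 to 1.25 and Pcolce2 -2.44 to 1.54. In bleomycin against PBS in Ephb4 CKO, Bmp1 was -0.82 to 0.34, Tll1 -1.17 to 0.44 and Pcolce2 -0.68 to 0.65. The interaction was -3.29 to 0.21 for Pcolce, -3.33 to 1.54 for Pcolce2 and -1.90 to 0.46 for Adamts2. With 4 or 5 mice per group, the biological coefficient of variation over all genes was 0.557.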
